A study of Homo sapiens with 9 samples.

Results

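The genes described here encode the RNA polymerases I, II and III, the general transcription factors, Mediator, and the factors that carry RNA polymerase II from pausing through elongation to termination. They were chosen by symbol (POLR1, POLR2 and POLR3 subunits, TBP and TAF genes, GTF2 and GTF3 genes, MED genes, CDK7 to CDK9 and CDK11 to CDK13, the cyclins CCNC, CCNH, CCNK and CCNT, ELL and AFF genes, NELF and SUPT4 to SUPT6 genes, elongin, TCEA and INTS genes), which found 63 of the 6499 genes in the table of doxorubicin against control. RefSeq lists 172 protein-coding genes with such symbols, of which 60 were among the 63, and the other 3 were pseudogenes of GTF2I. The remaining genes of these complexes, among them TBP, CDK7, CDK8, POLR2B and INTS11, were not analysed here.

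The cells were WI-38, a human fibroblast line from lung that divides a limited number of times, used at population doubling 30 (PD30). The 3 control libraries came from cells given DMSO and then DMSO-containing medium. The 3 doxorubicin libraries came from the senescence model, in which a 12 h exposure to doxorubicin at 1 μM was followed by 48 h in medium with DMSO. Doxorubicin is an anthracycline that poisons topoisomerase II and intercalates into DNA. The labels do not say whether the libraries of a group came from separate cultures, so the p-values measure the spread between these libraries, which may be technical. A further 3 libraries of doxorubicin followed by oridonin were not analysed here.

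RNA polymerase I makes the large ribosomal RNAs, RNA polymerase II makes mRNA and most small nuclear RNAs, and RNA polymerase III makes tRNA and 5S ribosomal RNA. At a protein-coding gene, TFIID and the other general factors place RNA polymerase II at the start site, Mediator connects it to activators, TFIIH opens the DNA and starts phosphorylation of the polymerase tail. NELF holds the polymerase in a pause until the kinase CDK9 with cyclin T releases it. TFIIS rescues stalled polymerase, CDK12 and CDK13 keep long transcripts going, and Integrator cleaves small nuclear RNAs and ends unproductive transcription.

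Levels were given in TPM (a length-corrected share of all transcripts), with the unit inferred. The paper selected genes at over 1.2-fold either way with p under 0.05. The 6499 genes were taken as so selected on these 6 libraries, so no test below is independent of that choice. On the values used here some genes lay under 1.2-fold, such as POLR2A and CDK9 (ratio of group means 1.03 and 0.984). The reason was not tested. The fit used limma on log2(TPM + 1), gave each fold change a standard error (SE), and took in the 5721 genes that averaged 1 TPM or more, all 63 genes among them. A gene was called higher or lower past 1.2-fold with a Benjamini-Hochberg adjusted p under 0.05. Where the groups did not overlap, the exact two-sided permutation test gave p = 0.1, the smallest that 3 against 3 libraries allow. Because TPM are shares, fewer cells of a type and less RNA per cell cannot be told apart. Over all genes tested the median log2 fold change was -0.28 on the TPM scale, and it was -0.02 both after quantile normalization and after centring each library on its median. Calls were therefore made on these 3 scales, and a statement on direction holds on the TPM scale unless the other scales are named. Centring adds 0.26 to the log2 fold change of every gene, so a gene called higher on the TPM scale cannot fall under the fold threshold there, and for higher calls the check lies in quantile normalization.

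Of the marker genes used to check the cell type, 5 of 12 fibroblast genes were in the table, with a summed level of 5842 to 6195 TPM in control and 3930 to 4616 TPM in doxorubicin libraries. The epithelial list had 3 of 5 genes in the table (KRT8, KRT18 and KRT19), at 135 to 150 TPM in control and 283 to 307 TPM in doxorubicin libraries. The leukocyte list had CD68 and PTPRC of 4, with a sum of 45.02 to 48.97 TPM in control and 87.44 to 93.66 TPM in doxorubicin libraries, nearly all of it CD68, since PTPRC was under 1 TPM in every library, and none of the 3 endothelial genes was in the table. The part of these shifts in the results below was not tested. Pearson's r of log2(TPM + 1) across genes ranged from 0.992 to 0.995 within groups and from 0.935 to 0.958 across them.

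After doxorubicin, 16 of the 63 genes were called higher and 31 lower (25.4% and 49.2%), where 22.7% of all genes tested were called higher, 48.5% lower and 71.2% either way, so the shares in the list were near those of all genes. Small and shared polymerase subunits (POLR2L, POLR2I, POLR2H), TAF10, elongin B, NELF-E and the TFIIS paralogs TCEA2 and TCEA3 were higher. The tail kinase CDK12, the super elongation complex genes AFF4 and ELL2, TAF2, TAF5L, MED13L and the TFIIH gene GTF2H2 were lower, and all of these calls stood on all 3 scales. The balance depended on the scale, since 34.0% of the called genes of the list were higher on the TPM scale, 57.1% after quantile normalization and 68.3% after centring. Quantile normalization called 20 higher and 15 lower (32.9% and 29.2% of all genes tested). Centring called 28 higher and 13 lower (45.2% and 30.3% of all genes tested). On all 3 scales, 15 genes were called higher and 13 lower (23.8% and 20.6%, against 21.3% and 25.2% of all genes tested). In 19 genes every doxorubicin library lay above every control library, in 30 every one lay below, and in 14 the groups overlapped. That is 30.2% above and 47.6% below, against 32.3% above, 48.4% below and 80.7% either way of all genes tested. Doxorubicin replicate 2 was the library farthest from control in 21 of the 31 genes called lower, and replicate 3 was the nearest in 22. Among the 16 genes called higher, replicate 2 was the farthest in 8 and replicate 3 the nearest in 11. The same counts over all genes tested were not made, so this order may not be particular to the list.

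**Figure D1:**
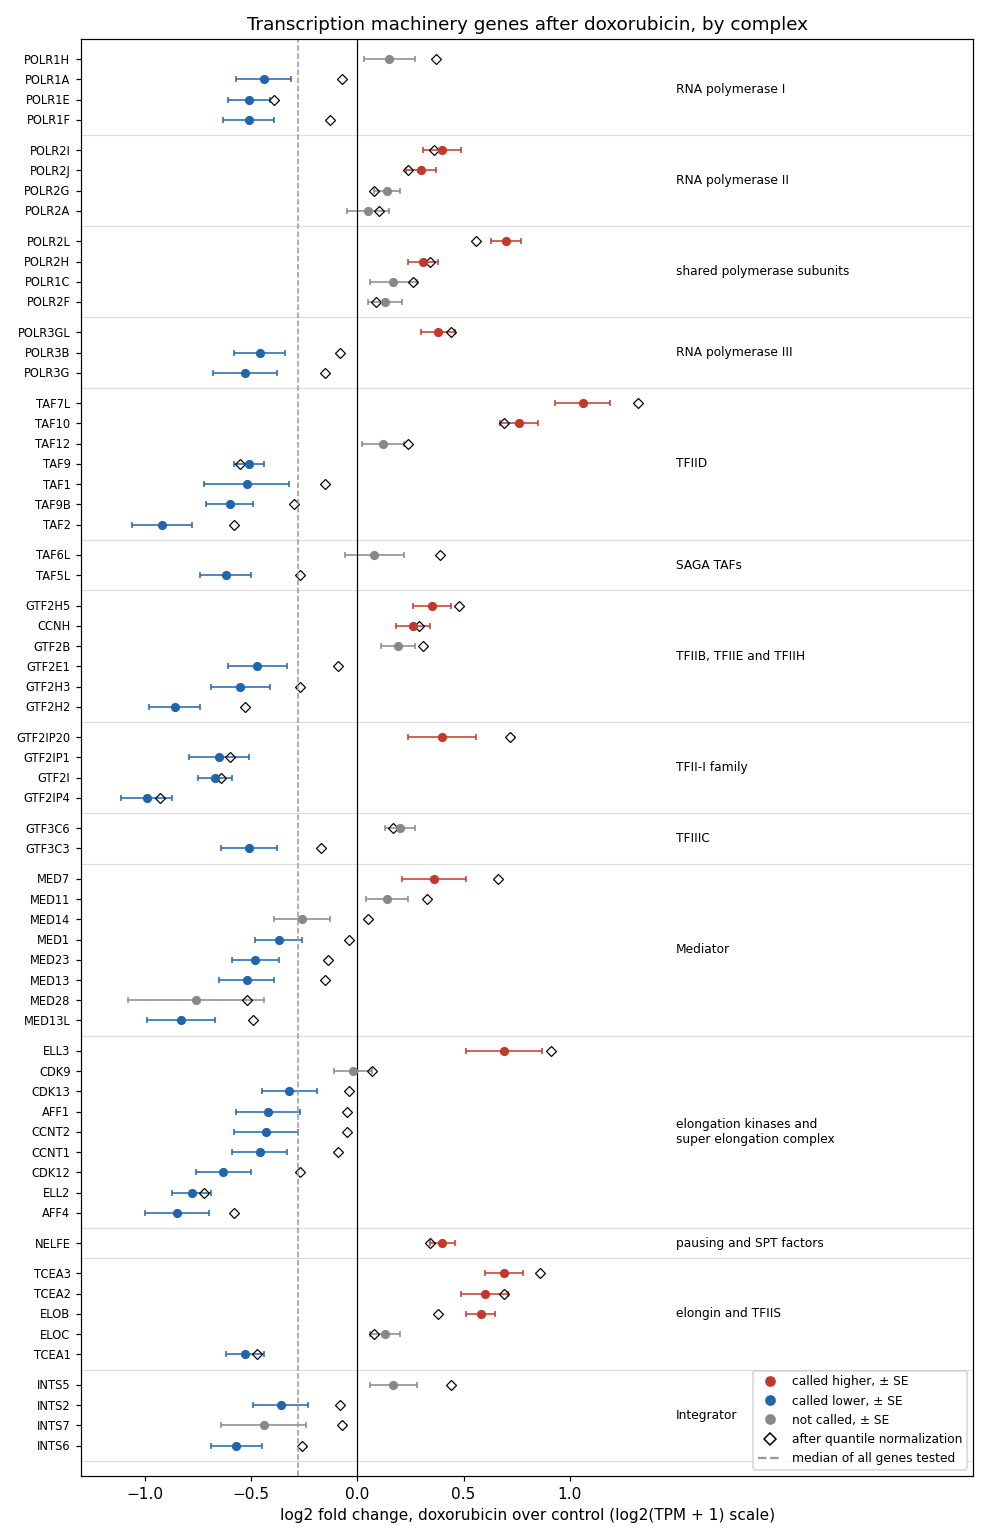
Log2 fold change of doxorubicin over control for each of the 63 genes, grouped by complex, with the standard error as a bar, filled points for the TPM scale and open diamonds for the value after quantile normalization. The dashed line is the median of all genes tested at -0.28, and most genes on the lower side move toward 0 after quantile normalization, while POLR2L, TAF10, ELOB and TCEA3 stay on the higher side.

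The 8 listed subunits of RNA polymerase II or shared between polymerases were level or higher on the TPM scale, with none called lower. Over all genes tested, 22.7% were called higher and 48.5% lower. POLR2L (ENSG00000177700, chromosome 11, 837356 to 842545), a small subunit present in all 3 polymerases, had 822.35, 803.06 and 865.14 TPM in control and 1350.41, 1494.9 and 1216.81 TPM after doxorubicin. It was the most abundant gene of the list, and the groups were far apart. It rose by 0.70 on the log2 scale (SE 0.07, limma adjusted p = 2.55e-05). POLR2H, another subunit of all 3 polymerases, rose from 48.65, 53.01 and 52.13 TPM to 63.32, 67.74 and 60.33 TPM, a log2 fold change of 0.31 (limma adjusted p = 0.00368). Both were called higher on all 3 scales. POLR2F, the third of these shared subunits, had a log2 fold change of 0.13 with overlapping groups, and so had POLR1C, which belongs to polymerases I and III, at 0.17, and both were called higher only after centring. Without control replicate 1, POLR1C was also called higher on TPM values (0.27, limma adjusted p = 0.0454), and without control replicate 3 it was at 0.09 (limma adjusted p = 0.481).

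Within RNA polymerase II, POLR2I (ENSG00000105258, chromosome 19, 36113710 to 36115346), a small subunit that bears on start site choice and proofreading, had 108.58, 100.72 and 125.02 TPM in control and 139.44, 163.76 and 138.86 TPM in doxorubicin libraries. The groups did not overlap, and it was called higher on all 3 scales, with a log2 fold change of 0.40 (SE 0.09, limma adjusted p = 0.00317). POLR2J, a core assembly subunit with near-identical gene copies that make its value uncertain, was higher by 0.30, but its fold change was under 1.2 after quantile normalization (log2 fold change 0.24) and without doxorubicin replicate 2 (0.24). POLR2A (ENSG00000181222, chromosome 17, 7484366 to 7514616), which encodes the largest, catalytic subunit with the phosphorylated tail, had 39.72, 45 and 35.31 TPM in control and 42.21, 37.69 and 43.76 TPM in doxorubicin libraries. These values overlapped, with a log2 fold change of 0.05 (SE 0.10, limma adjusted p = 0.668), although after centring POLR2A was called higher at 0.30. POLR2G, which sits on the stalk of the enzyme, had a log2 fold change of 0.14 and was called only after centring. The level of POLR2L relative to POLR2A within a library, in TPM, was 20.7, 17.8 and 24.5 in control and 32, 39.7 and 27.8 in doxorubicin libraries.

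Of the 4 listed subunits particular to RNA polymerase I, 3 were called lower on the TPM scale, beside 48.5% of all genes tested. POLR1A (ENSG00000068654, chromosome 2, 86020216 to 86106155), the largest and catalytic subunit, had 6.49, 6.51 and 5.88 TPM in control and 4.16, 3.87 and 5.16 TPM in doxorubicin libraries, a log2 fold change of -0.44 (SE 0.13, limma adjusted p = 0.0102). POLR1E, which helps the enzyme initiate, had 29.85, 31.48 and 27.92 TPM and then 20.44, 18.52 and 22.84 TPM. POLR1F, a stalk subunit, had 6.05, 6.22 and 5.18 TPM and then 3.82, 3.47 and 4.02 TPM. The log2 fold change was -0.51 for each. In all 3 genes every doxorubicin library was below every control library. Their calls depended on the scale, as POLR1A and POLR1F were not called after quantile normalization (limma adjusted p = 0.507 and 0.217) and none of the 3 passed the fold change after centring, when POLR1E stood at -0.25. POLR1H, the small subunit of RNA cleavage, had 13.41, 13.36 and 13.41 TPM in control and 15.45, 17.28 and 12.44 TPM in doxorubicin libraries, which overlapped. It was called higher on both other scales (0.37 and 0.41) and without doxorubicin replicate 3 (log2 fold change 0.27, adjusted p = 0.0331 from limma). Without doxorubicin replicate 2 it was at 0.05 (limma adjusted p = 0.717).

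Of RNA polymerase III, a pair of alternative subunits moved apart. POLR3G and POLR3GL encode alternatives for the same position of the enzyme. POLR3G is known from stem and dividing cells and POLR3GL from most tissues. POLR3G (ENSG00000113356, chromosome 5, 90471748 to 90514553) had 4.54, 6.52 and 4.33 TPM in control and 3.38, 3.38 and 2.81 TPM in doxorubicin libraries. POLR3GL (ENSG00000121851, chromosome 1, 145964702 to 145978848) had 38.89, 33.84 and 32.46 TPM in control and 46.71, 44.72 and 46.09 TPM in doxorubicin libraries. The groups did not overlap for either, with log2 fold changes of -0.53 (SE 0.15, limma adjusted p = 0.00953) and 0.38 (SE 0.08, limma adjusted p = 0.00254). POLR3GL was called higher on all 3 scales, and POLR3G was called on the TPM scale only (limma adjusted p = 0.394 after quantile normalization and 0.115 after centring). Within a library POLR3GL stood at 8.57, 5.19 and 7.5 times POLR3G in control and at 13.8, 13.2 and 16.4 times in doxorubicin libraries. POLR3B, the second largest subunit, had 4.86, 5.61 and 5.02 TPM and then 3.45, 3.15 and 3.85 TPM, a log2 fold change of -0.46 that was called on TPM values only (limma adjusted p = 0.00646, and 0.435 after quantile normalization). The factor TFIIIC, which recruits this polymerase to tRNA genes, had GTF3C3 at 10.07, 9.76 and 8.34 TPM in control and 6.26, 5.49 and 7.2 TPM after doxorubicin (log2 fold change -0.51, called on the TPM scale only). Its small subunit GTF3C6 had 123.19, 131.35 and 128.71 TPM and then 143.04, 162.85 and 137.25 TPM, higher in every doxorubicin library but under the fold threshold at 0.20, and was called after centring only.

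**Figure D2:**
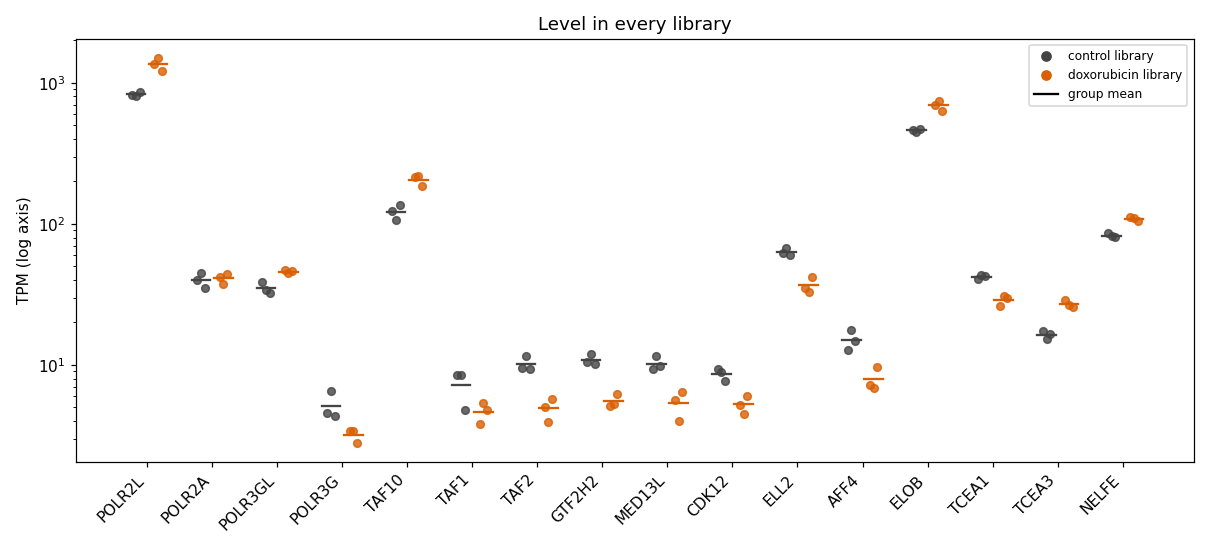
TPM in each of the 3 control and 3 doxorubicin libraries on a log axis for 16 genes, with a bar for each group mean. POLR2L, POLR3GL, TAF10, ELOB, TCEA3 and NELFE sit higher in all doxorubicin libraries, the TAF1 and POLR2A libraries overlap, and the others sit lower in all doxorubicin libraries.

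TFIID, which binds the core promoter, was split between subunits. TAF10 (ENSG00000166337, chromosome 11, 6606296 to 6612667), a histone-fold subunit that TFIID shares with the coactivator SAGA, had 122.54, 106.3 and 135.05 TPM in control and 215.49, 216.6 and 183.98 TPM in doxorubicin libraries. It rose by 0.76 on the log2 scale (SE 0.09, limma adjusted p = 0.0001) and was called higher on all 3 scales. TAF2 (ENSG00000064313), which contacts the initiator element of promoters, fell from 9.47, 11.58 and 9.36 TPM to 5.03, 3.96 and 5.77 TPM, a log2 fold change of -0.92 (SE 0.14, limma adjusted p = 0.000369), and was called lower on all 3 scales. The ratio of TAF10 to TAF2 within a library went from 12.9, 9.18 and 14.4 in control to 42.8, 54.7 and 31.9 in doxorubicin libraries.

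TAF1 (ENSG00000147133), the largest TFIID subunit and its scaffold, had 8.5, 8.51 and 4.76 TPM in control and 3.79, 5.38 and 4.83 TPM in doxorubicin libraries, so that control replicate 3 lay among the doxorubicin libraries. It was called lower at -0.52 (limma adjusted p = 0.0373), but on neither other scale, and the call was lost without control replicate 1 or 2 or without doxorubicin replicate 1 or 3 (limma adjusted p = 0.0677 to 0.131). TAF9 and its paralog TAF9B, which also pair into SAGA, both fell without overlap, TAF9 from 104.07, 108.28 and 101.97 to 78.12, 67.96 and 73.95 TPM and TAF9B from 11.52, 11.83 and 11.35 to 7.78, 6.39 and 7.76 TPM, with log2 fold changes of -0.51 and -0.60. TAF9B was called lower on all 3 scales, and TAF9, whose locus overlaps another gene, missed the fold change after centring (-0.25). TAF12 had a log2 fold change of 0.12 with overlapping groups and was called higher only after centring. TAF7L, a paralog of TAF7 known from germ cells, was near the low end with 0.96, 0.76 and 0.7 TPM in control and 2.63, 3.01 and 2.66 TPM in doxorubicin libraries, and had the largest rise of the list at 1.06 (limma adjusted p = 6.85e-05), on all 3 scales. Of the SAGA forms, TAF5L fell from 9.1, 9.95 and 9.48 to 5.62, 5.2 and 6.82 TPM (log2 fold change -0.62, called lower on all 3 scales), and TAF6L had 0.08 with overlapping groups and was called higher on both other scales.

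TFIIH, the factor with the helicases of promoter opening and DNA repair, was divided as well. GTF2H2 (ENSG00000145736), a ring-finger subunit of its core, fell from 10.44, 11.96 and 10.13 to 5.13, 5.26 and 6.23 TPM, a log2 fold change of -0.86 (SE 0.12, limma adjusted p = 0.000193) on all 3 scales, although near-identical copies of the gene leave its value uncertain. GTF2H3, its partner in the core, was lower on the TPM scale only (-0.55). GTF2H5, the smallest core subunit, rose from 21.42, 22.67 and 23.04 to 31.21, 29.07 and 26.21 TPM, a log2 fold change of 0.35 (limma adjusted p = 0.00613) on all 3 scales. CCNH, the cyclin of the TFIIH kinase CDK7, had 46.54, 45.65 and 45.66 TPM in control and 60.03, 51.71 and 54.59 TPM in doxorubicin libraries, without overlap. Its log2 fold change of 0.26 stood just above the threshold of 1.2, on all 3 scales, and the call was lost without control replicate 2 or 3 (0.26 each, below the threshold before rounding) or doxorubicin replicate 1 (0.21). TFIIB (GTF2B) had 23.23, 25.66 and 24.02 TPM and then 26.83, 27.83 and 28.8 TPM, a log2 fold change of 0.19 that was called on both other scales only. The TFIIE gene GTF2E1 was lower on the TPM scale only (-0.47), and its call was lost without control replicate 1 or 2 (limma adjusted p = 0.0529 and 0.0528).

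GTF2I carries the name of a general factor but encodes TFII-I, a signal-responsive DNA-binding protein. It fell from 66.66, 70.49 and 63.2 to 41.26, 39.43 and 43.87 TPM, a log2 fold change of -0.67 (SE 0.08, limma adjusted p = 4.35e-05). Its pseudogenes GTF2IP4 and GTF2IP1 were lower by 0.99 and 0.65 on the log2 scale, and all 3 were called lower on all 3 scales. The third pseudogene, GTF2IP20, was higher at 2.62, 3.14 and 4.37 against 2.58, 2.28 and 1.98 TPM, with a log2 fold change of 0.40 and a call on all 3 scales, and the call on TPM values was lost without control replicate 2 or 3 or doxorubicin replicate 2 or 3 (limma adjusted p = 0.0569 to 0.149, with a log2 fold change of 0.24 without doxorubicin replicate 3). Reads of these near-identical copies could have been split between them, so the separate values are uncertain.

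Of the 8 Mediator genes, 4 were called lower and 1 higher on the TPM scale, near the 48.5% and 22.7% of all genes tested. After quantile normalization 1 was called lower and 2 higher. MED13 and MED13L encode alternative subunits that tie this module, with its kinase CDK8, to the rest of Mediator. MED13L (ENSG00000123066, chromosome 12, 115953872 to 116277719) had 9.32, 11.54 and 9.76 TPM in control and 5.67, 4.03 and 6.44 TPM in doxorubicin libraries, a log2 fold change of -0.83 (SE 0.16, limma adjusted p = 0.00108), and was called lower on all 3 scales. MED13 had 4.54, 4.46 and 4.62 TPM and then 3.33, 2.36 and 2.94 TPM, a log2 fold change of -0.52 that was called on the TPM scale only (limma adjusted p = 0.00466, and 0.262 after quantile normalization). MED1, the contact for nuclear receptors, fell from 9.55, 10.07 and 8.88 to 7.02, 7.03 and 7.31 TPM (-0.37), and the tail subunit MED23 from 9.71, 9.37 and 9.3 to 6.85, 5.87 and 6.86 TPM (-0.48), without overlap. Both were called on the TPM scale only.

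MED14, the backbone of the complex, had 11.52, 9.92 and 8.42 TPM in control and 7.94, 7.59 and 8.71 TPM in doxorubicin libraries, with overlap and a log2 fold change of -0.26 (limma adjusted p = 0.084). It was at 0.05 after quantile normalization, and without control replicate 3 it was called lower at -0.37, while without control replicate 1 it was at -0.16 (limma adjusted p = 0.314). MED28 had 19.91, 15.44 and 19.76 TPM in control. After doxorubicin MED28 was lowest in replicate 2, at 5.63 TPM against 15.85 and 12.13 TPM in the other doxorubicin libraries. It was not called (log2 fold change -0.76, adjusted p = 0.0574 from limma), and it was called lower without doxorubicin replicate 2 (-0.37) and without doxorubicin replicate 1 (-1.05). It was also called lower with no filter on low values (limma adjusted p = 0.0398), with a mean of at least 5 TPM (0.0468) and with the replicate number as a block (0.00472). MED7, a middle subunit, was the one Mediator gene called higher, on all 3 scales, with 8.41, 6.3 and 8.83 TPM in control and 10.56, 11.8 and 8.7 TPM in doxorubicin libraries. These groups overlapped, and the call (log2 fold change 0.36, adjusted p = 0.0463 from limma) was lost without control replicate 1 or 2 or doxorubicin replicate 1 or 2 (limma adjusted p = 0.06 to 0.181, with a log2 fold change of 0.23 without control replicate 2). The head subunit MED11 had a log2 fold change of 0.14 and was called higher on both other scales.

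The elongation kinases, their cyclins and the super elongation complex had 7 of 9 genes called lower and 1 higher on the TPM scale, where 48.5% of all genes tested were called lower. After quantile normalization and after centring, 3 of the 9 were called lower, beside 29.2% and 30.3% of all genes tested. ELL2 (ENSG00000118985, chromosome 5, 95885098 to 95962071), an elongation factor that also steers RNA processing, fell from 62.24, 67.55 and 59.96 to 35.16, 33.02 and 41.76 TPM, a log2 fold change of -0.78 (SE 0.09, limma adjusted p = 7.77e-05). AFF4 (ENSG00000072364, chromosome 5, 132875379 to 132963634), the scaffold of the super elongation complex, fell from 12.69, 17.72 and 14.72 to 7.19, 6.84 and 9.71 TPM, a log2 fold change of -0.85 (SE 0.15, limma adjusted p = 0.000841). CDK12 (ENSG00000167258, chromosome 17, 39461511 to 39564907), the tail kinase known for its part in the expression of long DNA repair genes, fell from 9.32, 8.92 and 7.71 to 5.23, 4.49 and 6.04 TPM, a log2 fold change of -0.63 (SE 0.13, limma adjusted p = 0.0019). These 3 genes were called lower on all 3 scales, and their groups did not overlap.

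CDK9 (ENSG00000136807), the kinase that releases the pause, had 34.82, 33.67 and 30.73 TPM in control and 31.01, 30.74 and 35.9 TPM in doxorubicin libraries, a log2 fold change of -0.02 (SE 0.09, limma adjusted p = 0.805), and it was called on none of the 3 scales. Its cyclins CCNT1 (3.9, 4.69 and 3.75 TPM, then 2.85, 2.39 and 2.86 TPM) and CCNT2 (5.22, 5.07 and 4.19 TPM, then 2.86, 3.01 and 4.16 TPM) were lower by 0.46 and 0.43 on the log2 scale, on TPM values only. CDK13, the paralog of CDK12, had 12.43, 11.04 and 11.05 TPM and then 7.44, 9.56 and 10.15 TPM (log2 fold change -0.32), and AFF1, the paralog of AFF4, was at -0.42. Both were called on the TPM scale only. The call was lost for CCNT2 without control replicate 1 or 2 or doxorubicin replicate 1 or 2 (adjusted p = 0.0575 to 0.0836), for CDK13 without any 1 of the control libraries or doxorubicin replicate 1 (0.0629 to 0.186, with a log2 fold change of -0.20 without the last), and for AFF1 without control replicate 2 or doxorubicin replicate 2 or 3 (0.0555 to 0.11), each from limma. ELL3, a paralog of ELL2, was the one gene here that rose, from 0.93, 1.06 and 0.5 to 1.61, 1.59 and 2.72 TPM, a log2 fold change of 0.69 (limma adjusted p = 0.00624) on all 3 scales.

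Among the factors that act on paused or stalled polymerase, the TFIIS family changed its makeup. TCEA1 (ENSG00000187735), the common form of TFIIS, fell from 40.7, 43.54 and 42.6 to 26.18, 30.89 and 29.86 TPM, a log2 fold change of -0.53 (SE 0.09, limma adjusted p = 0.000413). TCEA2 (ENSG00000171703) rose from 32.13, 25.76 and 34.27 to 49.85, 47.6 and 43.49 TPM (0.60, limma adjusted p = 0.00077), and TCEA3 (ENSG00000204219) from 17.29, 15.35 and 16.58 to 28.8, 26.71 and 25.53 TPM (0.69, limma adjusted p = 0.000143). All 3 calls stood on all 3 scales. TCEA1 was the most abundant of the 3 in each control library, and TCEA2 was the most abundant in each doxorubicin library, with a ratio of TCEA2 to TCEA1 of 0.789, 0.592 and 0.804 and then of 1.9, 1.54 and 1.46.

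Elongin B (ELOB, ENSG00000103363, chromosome 16, 2771414 to 2777297), which serves elongin and cullin ubiquitin ligases, rose from 460.04, 445.7 and 472.97 to 697.41, 747.85 and 627.33 TPM, a log2 fold change of 0.58 (SE 0.07, limma adjusted p = 4.94e-05) on all 3 scales. Its partner ELOC had 130.47, 132.81 and 136.68 TPM and then 151.73, 152.3 and 133.19 TPM, with overlap, a log2 fold change of 0.13 and a call only after centring. The ratio of ELOB to ELOC was 3.53, 3.36 and 3.46 in control and 4.6, 4.91 and 4.71 in doxorubicin libraries. NELFE (ENSG00000204356, chromosome 6, 31952087 to 31959110), the RNA-binding subunit of the pausing factor NELF, rose from 85.64, 81.37 and 80.64 to 111.38, 110.41 and 104.83 TPM, a log2 fold change of 0.40 (SE 0.06, limma adjusted p = 0.000346) on all 3 scales.

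Of the 4 Integrator genes, INTS6 fell from 11.68, 11.74 and 9.61 to 7.69, 6.65 and 6.96 TPM, a log2 fold change of -0.57 (SE 0.12, limma adjusted p = 0.00203) on all 3 scales. INTS2 was lower on the TPM scale only (-0.36), and its call was lost without control replicate 1 or 2 or doxorubicin replicate 1 or 2 (limma adjusted p = 0.0585 to 0.107). INTS7 had 4.53, 5.24 and 4.69 TPM in control and 3.36, 2.11 and 4.83 TPM in doxorubicin libraries, where doxorubicin replicate 3 reached the control range. It was not called (-0.44, adjusted p = 0.0675) and was called lower without that library (-0.66, adjusted p = 0.00513 from limma). Without doxorubicin replicate 2 it was at -0.21 (limma adjusted p = 0.245). INTS5 had 10.09, 11.29 and 9.57 TPM and then 11.32, 11.61 and 12.21 TPM, a log2 fold change of 0.17 that was called higher on both other scales (0.44 and 0.43).

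Ratios of TPM between paralogs within a library are free of any constant factor per library, though quantile normalization can change them. The pairs were chosen after their values had been seen, so they are given without a test. From control to doxorubicin libraries the log2 ratio moved by 1.06 for POLR3GL over POLR3G, 1.17 for TCEA2 over TCEA1, 1.27 for TCEA3 over TCEA1 and 2.07 for ELL3 over ELL2, without overlap between the groups. The ratios carry no pseudocount, and ELL3 was near the low end in control (0.93, 1.06 and 0.5 TPM), so the size of its shift is uncertain. In pairs whose members moved the same way the log2 ratio moved by 0.15 for TAF9 over TAF9B without overlap, and with overlap by 0.27 for MED13 over MED13L, -0.06 for CCNT1 over CCNT2, -0.37 for CDK12 over CDK13 and 0.40 for AFF1 over AFF4.

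**Figure D3:**
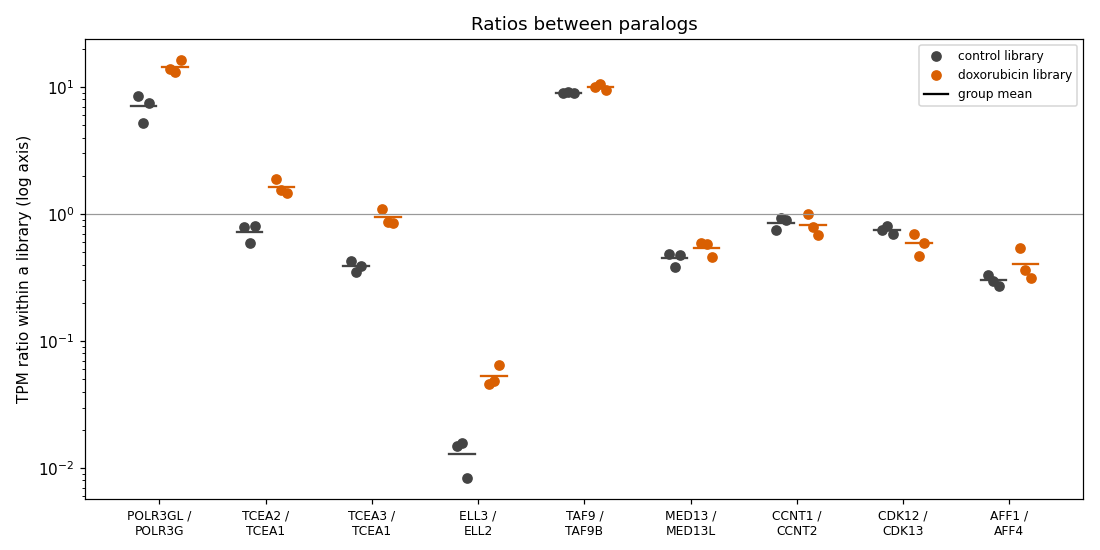
Ratio of the TPM of 2 paralogs in each of the 3 control and 3 doxorubicin libraries, on a log axis, with a bar for each group mean. The ratios of POLR3GL to POLR3G, TCEA2 and TCEA3 to TCEA1, and ELL3 to ELL2 lie higher in every doxorubicin library, TAF9 to TAF9B differs by 0.15 on the log2 scale, and the last 4 pairs overlap. ELL3 was near the low end in control, so the size of its shift is uncertain.

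By complex, the median log2 fold change on the TPM scale was 0.58 for elongin and TFIIS, 0.24 for the shared polymerase subunits, 0.22 for RNA polymerase II, -0.14 for TFIIB, TFIIE and TFIIH, -0.40 for Integrator, -0.42 for Mediator, -0.43 for the elongation kinases and super elongation complex, -0.46 for RNA polymerase III, -0.48 for RNA polymerase I, -0.51 for TFIID and -0.66 for GTF2I with its pseudogenes. The list as a whole had a median of -0.36, beside -0.28 for all genes tested. After quantile normalization the 3 positive medians stayed positive, the TFIIB, TFIIE and TFIIH median turned to 0.10, that of GTF2I with its pseudogenes was -0.62, and the others lay between -0.15 and -0.05. These are medians of 3 to 9 genes each and were not tested against one another. Without doxorubicin replicate 2 the Integrator median was -0.24, and without control replicate 2 that of TFIIB, TFIIE and TFIIH was -0.08.

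The genes called higher were mostly shorter in the genome than those called lower, as among all genes tested, a property that the choice of symbols did not use. The 15 protein-coding genes called higher had a median length of 7024 bp, the 29 called lower 55978 bp and the 16 not called 24863 bp (GENCODE release 29, GRCh38). Of the 21 genes under 20000 bp, 9 were called higher and 4 lower, and of the 39 longer genes 6 were called higher and 25 lower, with the limit set after the values had been seen. Over all genes tested, 39.9% of those under this length were called higher and 22.5% lower, and 12.1% and 64.7% of the longer ones, and the counts in the list lay near these shares. Across the 60 protein-coding genes, which share the same 6 libraries, Spearman's rho of gene length and log2 fold change was -0.53 on the TPM scale and -0.49 after quantile normalization. Among the exceptions were TCEA3 and CCNH, long genes called higher at 43680 and 94604 bp, and TAF9, a short gene called lower at 5271 bp. Coding length went the same way, with medians of 654 nt for genes called higher and 2661 nt for those called lower. Over all genes tested these medians were 753 and 1920 nt. Spearman's rho of coding length and log2 fold change was -0.51 on the TPM scale and -0.46 after quantile normalization. Length in the genome and coding length were not tested apart. The genes called higher also had higher levels, with a median control level of 45.9 TPM against 9.5 TPM for those called lower, beside 17.8 and 10.3 TPM over all genes tested. Spearman's rho of control level and log2 fold change over the 60 genes was 0.32 on the TPM scale and 0.18 after quantile normalization, and the control level enters both measures.

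**Figure D4:**
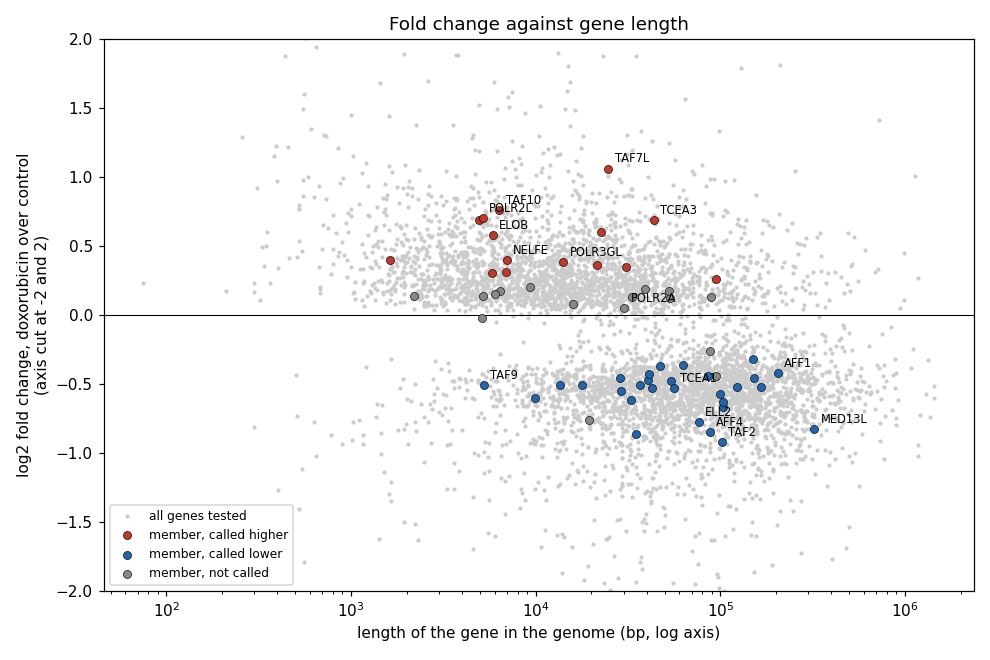
Log2 fold change of doxorubicin over control (log2(TPM + 1)) against gene length in bp on a log axis, for all genes tested in grey and for the 60 protein-coding genes of the list in colour by call. Genes called higher lie mostly to the left and genes called lower mostly to the right, and a few genes beyond the limits of the vertical axis are left out.

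To show promoter sequence of genes that moved in opposite directions, the 100 bases before the RefSeq start site (GRCh38.p14) are printed 5′ to 3′ for genes from the 4 largest rises and the 4 largest falls among genes over 5 TPM in both groups and with no near-identical copy, where the sequence could be shown. Capitals mark matches on either strand to the CRE (TGACGTCA), the ETS motif (CCGGAAG), the GC box (GGGCGG), the CCAAT box (CCAAT), the TATA box (TATAAA), the E-box (CACGTG), the YY1 motif (ATGGCGG) or the NRF1 motif (GCATGCGC), of which neighbouring matches may overlap. The first 3 genes were called higher and the last 4 lower. TCEA3 and ELL2, with log2 fold changes of 0.69 and -0.78, met the other limits but had no promoter sequence. ELOB and TAF5L entered in their place. TCEA2, the other of the 4 rises with a sequence, is not printed because its RefSeq start lies 7136 bp inside the GENCODE gene. The start of TAF10 lies 451 bp inside its gene.
TAF10 (chr11:6612217-6612316, minus strand): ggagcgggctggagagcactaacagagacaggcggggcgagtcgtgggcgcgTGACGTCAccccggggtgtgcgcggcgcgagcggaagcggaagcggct
POLR2L (chr11:842530-842629, minus strand): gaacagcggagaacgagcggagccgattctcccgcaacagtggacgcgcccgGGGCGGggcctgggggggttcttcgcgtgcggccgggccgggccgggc
ELOB (chr16:2777281-2777380, minus strand): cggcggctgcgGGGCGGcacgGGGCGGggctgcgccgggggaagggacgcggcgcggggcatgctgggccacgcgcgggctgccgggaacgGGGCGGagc
AFF4 (chr5:132963635-132963734, minus strand): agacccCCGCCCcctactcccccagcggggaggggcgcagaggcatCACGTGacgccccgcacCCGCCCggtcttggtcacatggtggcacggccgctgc
MED13L (chr12:116277694-116277793, minus strand): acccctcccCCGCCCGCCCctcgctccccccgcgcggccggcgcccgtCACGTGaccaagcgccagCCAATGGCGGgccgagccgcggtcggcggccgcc
CDK12 (chr17:39461386-39461485, plus strand): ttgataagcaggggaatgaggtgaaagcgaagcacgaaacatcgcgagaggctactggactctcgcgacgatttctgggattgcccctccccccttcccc
TAF5L (chr1:229626123-229626222, minus strand): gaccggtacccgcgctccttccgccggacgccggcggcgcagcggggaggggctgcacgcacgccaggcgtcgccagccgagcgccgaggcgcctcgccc
Among the 3 genes called higher, TAF10 had a CRE, and POLR2L and ELOB had GC boxes. Among the 4 called lower, AFF4 and MED13L each had an E-box beside GC boxes, and CDK12 and TAF5L had no match. MED13L also had a CCAAT box that overlapped a YY1 motif. The promoter table held 45 of the 60 genes, and in 19 of them the RefSeq start lay over 100 bp inside the GENCODE gene. In the 250 bases before the RefSeq start, 28 of the 45 had a GC box (62.2%, against 56.0% of 15842 protein-coding promoters), 15 a CCAAT box (33.3% against 34.5%), 11 an ETS motif (24.4% against 11.8%) and 9 an E-box (20.0% against 7.8%). Of these, 3 had a CRE, 3 a TATA box, 3 an NRF1 motif (6.7% each, against 2.3%, 9.2% and 3.7%) and 4 a YY1 motif (8.9% against 3.1%). The E-box was found in none of the 12 genes called higher, 5 of the 22 called lower and 4 of the 11 not called. In the same order the ETS motif was found in 2, 4 and 5, the GC box in 9, 14 and 5, and the CCAAT box in 2, 9 and 4. Shares by call over all genes tested were not computed, so these counts cannot tie a motif to a direction. A match describes these letters only.

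A further 46 symbols for factors of transcription were listed beside these, of which SKIC8 and WDR61 name the same gene. Of the 46 symbols, 16 were in the table, and 10 were called lower and 2 higher, beside 48.5% and 22.7% of all genes tested. Their median log2 fold change was -0.41, beside -0.28 for all genes tested. CDC73, a subunit of the PAF1 elongation complex, had 15.5 ± 1.32 TPM in control and 8.15 ± 1.61 TPM after doxorubicin (SD, n = 3) and was lower, at -0.87 on the log2 scale (limma adjusted p = 0.000471). RPRD1A, which binds the polymerase tail, went from 17.3 ± 0.374 to 9.83 ± 0.326 TPM (SD, n = 3) with a log2 fold change of -0.75, and the histone chaperone subunit SSRP1 fell by 0.63 on the log2 scale. CDK19, the paralog of the Mediator kinase CDK8, had 3.25 ± 0.261 and then 1.78 ± 0.376 TPM (SD, n = 3) and was lower at -0.62. The genes called higher were SSU72, a phosphatase of the polymerase tail, at 0.36 and SNAPC5, a factor of small nuclear RNA genes, at 0.31. After quantile normalization 4 of the 16 were called lower and 4 higher, beside 29.2% and 32.9% of all genes tested.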

How the data were processed

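RNA-seq values of WI-38 cells were taken from 6 libraries (3 control, 3 doxorubicin). The authors' deposited table gives 1 value per gene and library without naming the unit, and it was taken as TPM. FPKM would differ from TPM by 1 factor per library, which centring of log2(TPM + 1) removes only in part, least for genes near 1 TPM. The submitters' processing notes name CASAVA, HISAT2, StringTie, RSEM, DESeq2, edgeR and the mouse build GRCm38, without roles, although the identifiers are human. Fold changes, p-values, adjusted p-values and group means of the authors were not used. TPM keep no read depth, so precision comes from the replicates.

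Values were fitted as log2(TPM + 1) with limma 3.58.1 (R 4.3.3, eBayes with trend and robust), with a mean per group, over the 5721 genes averaging 1 TPM or more, and the fit was tested on simulated data. The design had foreseen either counts or normalized values, and the latter applied. Alternatives were a pseudocount of 0.1, other filters, 2 scalings (on listed genes only), a replicate block, other thresholds and the removal of single libraries.

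Genes named with full values are the catalytic or defining subunits and the largest rise and fall of each complex, and values of further genes were added after they had been seen. Genes and lists were chosen with earlier results of these data known. Gene lengths come from GENCODE release 29 (GRCh38), which matched 6462 of 6499 identifiers. Promoters are RefSeq's, and the first 50 transcribed bases of 30 of the 45 occur in a GENCODE transcript of the gene. Tables and plots were made with pandas 2.3.3, SciPy 1.17.1, NumPy 2.4.6 and matplotlib 3.10.9 (Python 3.11.15).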

Additional observations from a re-analysis of the deposited data

How the results depend on the processing

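The calls turned on scaling and on the minimum fold change. Against 16 genes called higher and 31 lower, quantile normalization gave 20 and 15, centring on the median 28 and 13, and a fold change over 1.5 gave 6 and 11, while the other alternatives stayed within 1.5 times and fits without 1 library gave 13 to 16 higher and 25 to 31 lower. A stricter fold change removes calls by construction, and the cause of the other shifts was not tested. Medians after quantile normalization were -0.08 for Integrator, -0.09 for Mediator, -0.10 for RNA polymerase I, 0.17 for RNA polymerase II, -0.08 for RNA polymerase III, 0.10 for TFIIB, TFIIE and TFIIH, -0.15 for TFIID, -0.05 for the elongation kinases, 0.38 for elongin and TFIIS and 0.30 for the shared subunits. After centring they were, in the same order, -0.14, -0.16, -0.22, 0.48, -0.20, 0.12, -0.25, -0.17, 0.84 and 0.50. With a mean of at least 5 TPM the medians of RNA polymerase III (POLR3GL alone), TFIIB, TFIIE and TFIIH, the elongation kinases and Integrator were 0.38, 0.19, -0.63 and -0.20, since fewer genes were tested. CDK9 turned to 0.07 after quantile normalization and 0.24 after centring and MED14 to 0.05 after quantile normalization, and without 1 library CDK9 ranged from -0.09 to 0.01, POLR2A from -0.04 to 0.13 and TAF6L from -0.06 to 0.17. Deviations of libraries with the same replicate number correlated at -0.063, -0.193 and -0.23. Deviations from a mean of 3 libraries are not independent, so these values cannot show whether the numbers pair the libraries. With the replicate block 14 genes were called higher and 29 lower. The unknown depth limits the genes near 1 TPM most.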
